A study of Danio rerio with 4 samples.

Results

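The regions described here are 922 stretches of open chromatin that were called only in zebrafish periderm and that lie close to other such stretches, in 269 clusters. The peaks of 4 ATAC-seq lists were joined into 694637 regions wherever they shared 1 bp or more. Of these, 10906 (1.57% of all regions) had peaks from the GFP-positive libraries 1 and 2 alone, and are called GFP-positive-only. The 1951 that lay within 1 kb of a region called in all 4 lists were dropped, which left 8955 distal GFP-positive-only regions. Distal refers here to regions called in all 4 lists and not to gene starts, which the rule did not use. Distal regions on 1 chromosome were chained wherever the gap to the next was at most 20 kb, and the regions of chains with 3 or more are the clustered regions. They make up 10.3% of the distal GFP-positive-only regions. The members were thus chosen by the presence and position of peaks in these same 4 lists, and their number, spacing and absence from the GFP-negative lists are given as description.

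All 4 libraries were made at the 4-somite stage from embryos that carry Tg(krt4:GFP), in which the krt4 promoter drives GFP in the periderm. Sorted GFP-positive cells gave 2 libraries, and the GFP-negative cells, which are the remaining cells of the same embryos and hold many cell types, gave the other 2. Each library was made from 50000 cells. The series' design gives 2 independent incrosses, read here as the batches of replicates 1 and 2. A region that is open in a few of the GFP-negative cell types and one that is closed in all of them cannot be told apart in such a mixed population. Where a list holds no peak, some signal may still have been present.

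Periderm is the flat, outermost epithelial layer of the embryo. It forms early, seals the surface through tight junctions, and is known for keratins, claudins and regulators such as Grhl3 and Klf17. ATAC-seq uses the Tn5 transposase to cut accessible DNA, and short fragments mark nucleosome-free regions (NFRs), which include promoters and enhancers. Genes with strong expression in 1 cell type are often flanked by several open elements, so that groups of cell-type-restricted NFRs are one place where such genes are looked for.

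List length was 336052 (replicate 1) and 190059 peaks (replicate 2) for periderm, and 455867 and 333588 peaks for the other cells. The depth implied by the smallest step between fold values was 24915300 and 29455700 tags in the GFP-positive and 42446900 and 37589500 in the GFP-negative libraries. Both GFP-negative libraries were deeper than both GFP-positive ones, and the part of depth in the counts of each class was not tested.

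The locus of cldne, which encodes a claudin of tight junctions and is used by the study as an example of a periderm locus, holds 1 of the 269 clusters. It has 5 regions between 2616955 and 2640313 on chromosome 15 (danRer7), and 4 of them overlap intervals that the study names after cldne. The study picked those intervals with its ATAC-seq of these same populations, so the overlap is no independent evidence. Reporter constructs of the named elements gave mosaic GFP in the periderm of injected embryos, according to the study. The fold of a peak is its pileup over the background of its own library, read with 1 added to each. It is given for GFP-positive replicate 1 and then replicate 2. The element 6 kb from the gene start on one side (chr15:2625544-2625842) had a fold of 12.7 and 9.83. The element at 3 kb on the same side (chr15:2629129-2629365) had 12.2 and 7.02. The region at the transcription start site (chr15:2632016-2632400) had 11.7 and 16.9, and that 8 kb to the other side (chr15:2640035-2640313) had 10.2 and 15.0. The fifth region (chr15:2616955-2617073) overlaps none of the named intervals and was the weakest, with 7.14 and 5.15. In replicate 2 the start site and the 8 kb element were above those at 6 kb and 3 kb. In replicate 1 all 4 lay within 10.2 to 12.7, where neighbours in the order differed by as little as 1 step of 0.51, so no order is read from that library. A further named element, 11 kb from the start, had a fold of 11.7 and 19.2, in replicate 2 above the 4 elements in the cluster. It is not a member because GFP-negative replicate 1 had a peak there, with a fold of 3.41. GFP-negative replicate 2 had no peak at that element.

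The cldne cluster also encloses open chromatin that is not particular to periderm. Inside its span, 2 regions were called in all 4 lists. In the peaks that did not belong to the cluster the highest fold was 17.8 and 25.7 in the GFP-positive and 15.5 and 19.2 in the GFP-negative libraries. In each library the highest fold of the span was thus at one of the 2 shared regions and not at a periderm-only region. In a RefSeq annotation of a later assembly, used for gene order alone, cldne lies between the claudin genes cldnj and cldnf.

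**Figure D1:**
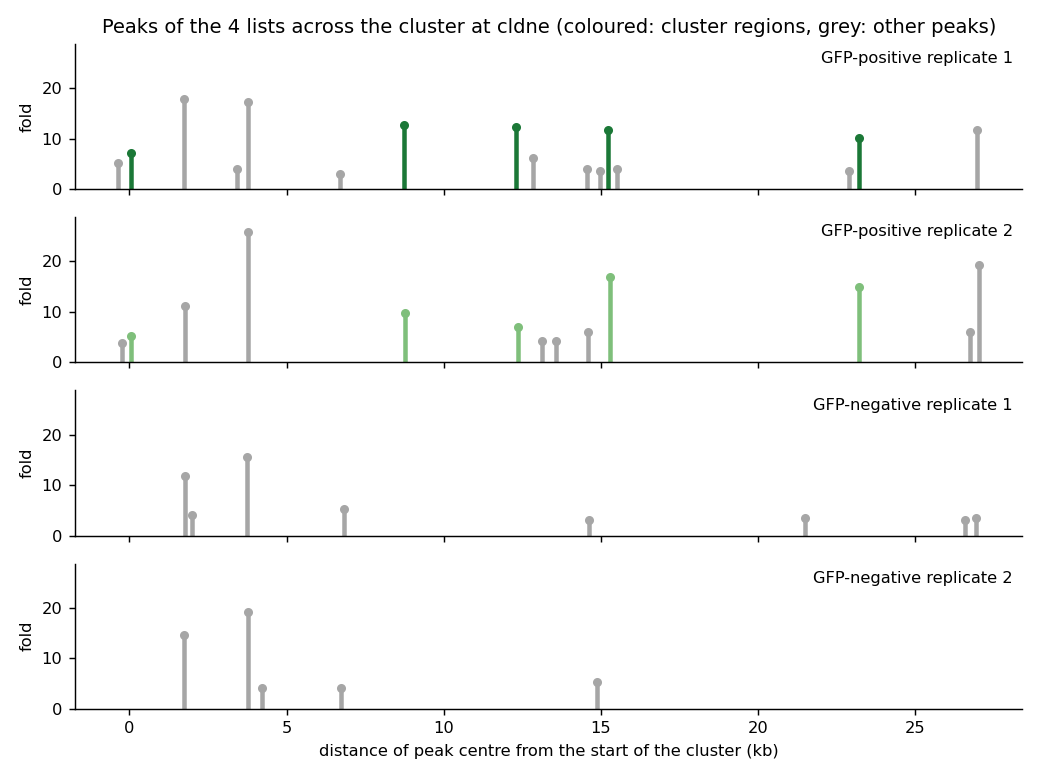
Peaks of the 4 lists across the cldne cluster and the 5 kb on either side, plotted by the distance of each peak centre from the start of the cluster (kb) against fold, with 1 panel per library. Coloured stems are peaks of the 5 clustered regions and grey stems are all other peaks. The clustered regions have stems in both GFP-positive panels and none in the GFP-negative panels. The tallest grey stem of each panel stands near the left end.

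Most clusters were small. Of the 269 clusters, 195 held 3 regions, 51 held 4, 12 held 5, 6 held 6, 3 held 7 and 2 held 8. The span from the first to the last base had a median of 18.9 kb (quartiles 11.8 and 25.1 kb, range 1.18 to 56.1 kb), and all spans came to 5.22 Mb. The regions themselves were 55 to 546 bp wide with a median of 137 bp, and covered 2.72% of the spans. The 653 gaps between neighbours had a median of 6822 bp (quartiles 2210 and 12287 bp), and 89 of them, or 13.6%, were under 1 kb. The longest gap inside a cluster was 19930 bp and the shortest that ended a chain was 20026 bp. The member nearest to a region called in all 4 lists lay 1005 bp from it, and the farthest region dropped for this reason lay 1000 bp away.

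A cluster on chromosome 17 (45962660 to 45977869) had the most regions in the shortest span, 8 in 15.2 kb. Their fold in replicate 1 ran from 5.61 to 15.3 and in replicate 2 from 4.68 to 10.3. The strongest in both lists was the same region (chr17:45975046-45975380, 15.3 and 10.3), and it stands first in a row of 5 that ends the cluster. No region called in all 4 lists lay inside this span, and 4 regions with a GFP-negative peak did, all from GFP-negative replicate 1 with a fold of at most 4.55. One of those 4 (chr17:45963050-45963102, fold 4.17) lay on a pair of GFP-positive peaks with a fold of 11.2 and 14.5, so the strongest open region of the locus in replicate 2 is not a member.

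The other cluster of 8, on chromosome 19 (22846262 to 22892606), was spread over 46.3 kb. Its fold ran from 4.59 to 10.2 in replicate 1 and from 4.68 to 9.36 in replicate 2, and its regions lay 13.8 kb or more from any region called in all 4 lists (13818 to 49076 bp). For comparison, the shortest such distance of a cluster had a median of 2638 bp over all 269. This cluster thus stood in a stretch with few openings common to both populations. Within it lay 8 regions called in 1 GFP-negative list alone, with a fold of at most 4.17 in replicate 1 and 5.71 in replicate 2.

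The clusters of 7 were on chromosomes 3 (36691153 to 36717848), 6 (21622212 to 21652072) and 7 (19885027 to 19916308). Within each, strong and weak regions lay side by side. On chromosome 6 the neighbours chr6:21643010-21643180 (14.3 and 17.3) and chr6:21643311-21643556 (16.8 and 16.9) led, and the last region of the same cluster (chr6:21651971-21652072) had 4.08 and 3.75. On chromosome 7 a single region (chr7:19914273-19914503) reached 18.4 and 15.4, and the other 6 had at most 10.7 in replicate 1 and 7.02 in replicate 2. On chromosome 3 the last 3 regions were the strongest, each with 9.36 in replicate 2 and 7.65 to 9.18 in replicate 1.

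Of the 6 clusters with 6 regions, the 5 with the shorter spans complete the 10 largest and were on chromosomes 1, 5, 19, 20 and 24. The sixth, also on chromosome 1 (57866669 to 57917952), was 51.3 kb long with a median fold of 5.86 and 6.79. That on chromosome 20 (8263118 to 8291619) had the highest median fold in replicate 1, 9.18, and its strongest region (chr20:8288572-8288858) had 13.3 and 19.2. The cluster on chromosome 1 (45632806 to 45660430) was the weakest of the 10, with a median fold of 4.84 and 4.68. Many regions in a cluster therefore did not go with strong regions in every case.

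**Figure D2:**
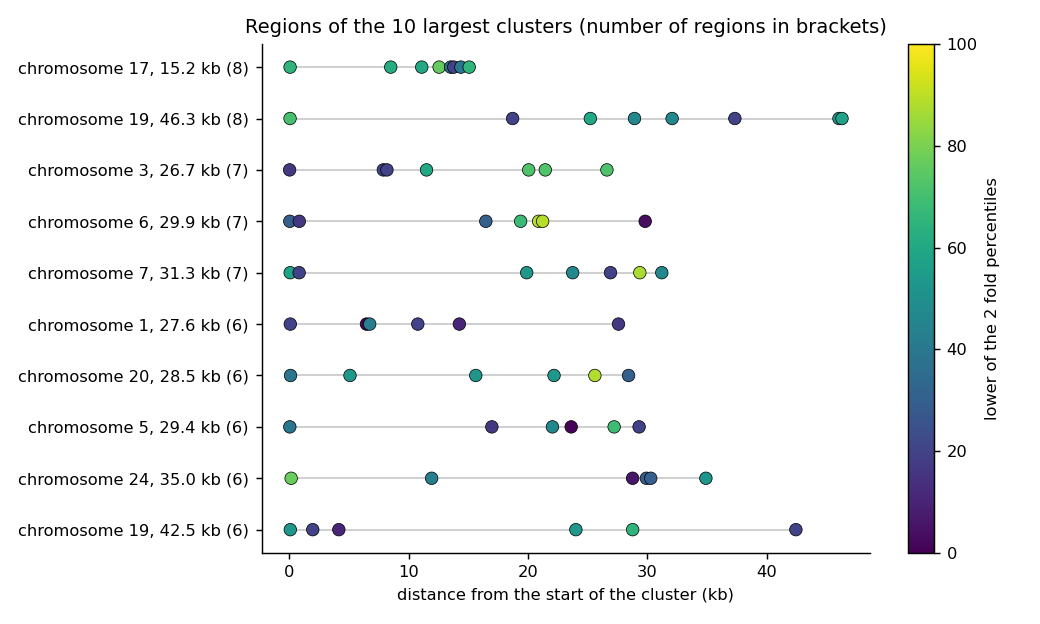
The 10 clusters with the most regions, each drawn from its first base (kb, horizontal axis) with 1 point per region, labelled by chromosome, span and number of regions. Colour gives the lower of the 2 fold percentiles of a region in the GFP-positive lists. Bright points stand beside dark ones within single clusters, as on chromosomes 6 and 7. The cluster on chromosome 1 has no bright point, and its highest value is 42.8.

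The strongest clusters were other ones. Ranked by the median over their regions of the lower of the 2 fold percentiles (the percentile of a fold among all peaks of its list, ties at the middle rank), the first and the next lay side by side on chromosome 17, at 22382625 to 22394974 and 22430513 to 22451154, 35538 bp apart. In the first, the regions chr17:22382625-22382821 (12.2 and 13.1) and chr17:22390551-22390762 (13.3 and 13.1) gave nearly the same values in both batches, and the last (chr17:22394852-22394974) had 6.63 and 6.55. An even stronger region between them (21.9 and 24.3) was called once outside periderm, in GFP-negative replicate 1 with a fold of 7.96, and so is not a member. In the next cluster, chr17:22430513-22430924 had 11.7 and 14.0, chr17:22432800-22433023 had 10.7 and 13.1, and the third region had 5.10 and 3.75.

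The remaining strong clusters were on chromosomes 12 (10177660 to 10185061), 14 (11601312 to 11615703) and 17 (32629359 to 32632291), with 3 regions each. The clusters on chromosomes 14 and 17 were tied at a median percentile of 79.1 with another, on chromosome 10 (27295001 to 27304855), whose median fold was 14.3 and 11.2. On chromosome 17 the pair of strong regions, chr17:32629359-32629613 (17.8 and 16.9) and chr17:32631966-32632291 (15.8 and 11.2), lay within a span of 2.93 kb that also held 2 GFP-negative-only regions. Regions of opposite classes thus lay together within 3 kb there. All 3 of the clusters with the shortest span per region were under 1.5 kb long (1.18, 1.30 and 1.46 kb, on chromosomes 16, 19 and 21). That on chromosome 21 (26137785 to 26139243) held a region with 9.69 and 16.9 between weaker ones, and no GFP-negative peak lay inside it or inside that on chromosome 19 (4828814 to 4830116).

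Single regions were ranked by the lower of their 2 fold percentiles. The first was chr16:46195689-46195889, with a fold of 20.9 and 25.7. It was followed by chr25:33857727-33857974 (17.3 and 19.2), chr19:22980365-22980568 (14.8 and 18.7), chr6:21643010-21643180, described above. The fifth place was shared by chr17:32629359-32629613, chr6:21643311-21643556 and chr21:24525124-24525337 (15.8 and 16.9), all with a lower percentile of 89.0. The nearest region with a GFP-negative peak lay 785, 62, 1565 and 2429 bp from the first 4, and 140, 2053 and 3303 bp from the 3 that tied. The strongest regions thus lay at very different distances from openings called in the other cells. Over all 922 this distance had a median of 1258.5 bp, against 1031 bp in the unclustered regions. It was at most 1 kb in 384 (41.6%), against 48.9% of the unclustered, and in 33.8% of those in chains of 5 or more. In 64 of the 922 it was at most 100 bp.

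Fold was higher in clustered than in unclustered distal GFP-positive-only regions. The rule used no fold values, but a clustered region needs neighbours with called peaks in the same lists. Those lists hold no peak with a fold below 3.06 in replicate 1 and 3.28 in replicate 2. The difference is thus not independent of how the members were chosen. In replicate 1 the median fold was 6.12 in the 922 clustered and 5.61 in the 8033 unclustered regions, with quartiles of 5.10 to 8.67 and 4.59 to 7.14. In replicate 2 it was 6.09 and 5.15, with quartiles of 4.68 to 7.49 and 4.68 to 6.55. Fold moves in steps of 0.51 in replicate 1 and 0.47 in replicate 2, so these medians lay few steps apart. The distributions overlapped widely. The mean percentile was higher in clustered regions by 8.19 points in replicate 1 and by 7.07 in replicate 2 (7.63 ± 0.79, SD, n = 2). Since the 2 libraries allow no p below 0.5 in an exact paired test, no test is given.

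The values rose step by step with the length of the chain. The mean percentile in replicate 1 was 47.4 for 6171 regions that stood alone, 50.6 for 1862 in pairs, 55.2 in chains of 3, 57.3 in chains of 4 and 59.5 in chains of 5 or more. In replicate 2 it was 35.2, 38.7, 41.6, 44.7 and 47.0. The share of regions above the 50th percentile in both lists was 19.8% alone, 26.9% in pairs, 31.6% in chains of 3, 34.8% in chains of 4 and 44.4% in longer ones. In all, 315 of the 922 clustered regions (34.2%) were above the 50th percentile in both lists, against 21.5% of the unclustered. Median width rose too, from 116 bp alone to 135, 139.5 and 148 bp in chains of 3, 4 and 5 or more. The order held in both batches, but regions of 1 library are not replicates. The lists that made the chains also gave these folds and widths, so the order is a description. When distal regions within 1 kb of each other were counted as 1, 219 clusters were left. The median percentile of clustered regions was then higher by 7.13 and 16.93 points, the same as without that step. A joined region took the highest percentile of its parts, and fold takes few values, so equal medians cannot show that joining had no effect. Both median differences depended on single libraries. In replicate 2 the difference was 0 when GFP-negative replicate 1 was left out, which lets 3610 regions into clusters. In replicate 1 the difference was 0 when GFP-positive replicate 2 was left out.

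**Figure D3:**
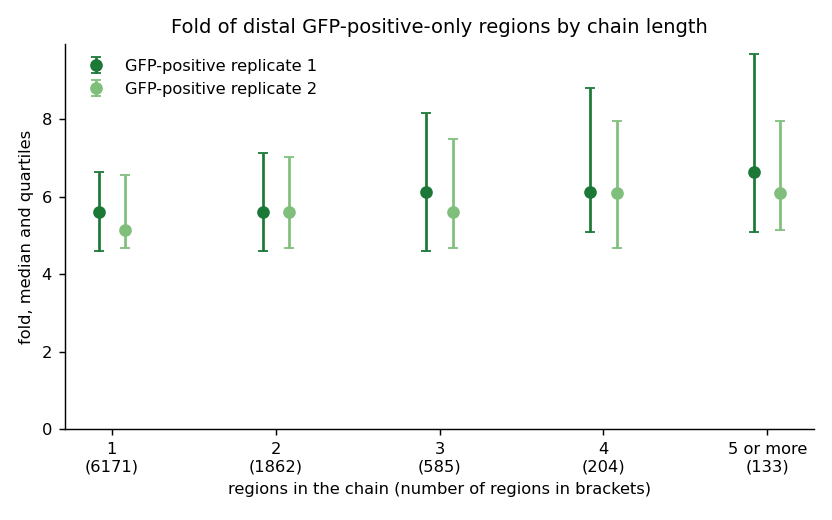
Median fold (points) with quartiles (bars) of distal GFP-positive-only regions in the 2 GFP-positive lists, by the number of regions in the chain, with the number of regions in brackets. Medians move from 5.61 to 6.63 in replicate 1 and from 5.15 to 6.09 in replicate 2 between lone regions and chains of 5 or more, and the quartile bars overlap throughout.

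The same comparison was then made outside periderm. GFP-negative-only regions were 39772, of which 30068 were distal, and 11261 of these (37.5%) lay in 2861 clusters of up to 20 regions. Their mean percentile differed between clustered and unclustered regions by 0.71 points in GFP-negative replicate 1 and 0.14 in replicate 2 (0.42 ± 0.40, SD, n = 2), and their median width was 124 and 121 bp. The classes differed in number under the same gap, and this difference in percentile was not computed with equal numbers of peaks. It is thus no like-for-like contrast with the GFP-positive-only regions. When equal numbers of the strongest peaks were taken from each list, there were 12825 distal GFP-positive-only and 10918 distal GFP-negative-only regions, and the order turned: 15.6% and 11.9% were clustered. This setting changed which peaks were kept as well as their number. The order also turned without GFP-positive replicate 2, with 79.5% of distal GFP-positive-only and 39.8% of distal GFP-negative-only regions clustered. The part of region number in either comparison was not tested.

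Within a cluster the regions were as unlike each other as clustered regions in general. The intraclass correlation of the percentile, which is 0 when members of a cluster resemble each other no more than members of different clusters, was 0.04 in replicate 1 and 0.01 in replicate 2. The range of percentiles inside a cluster had a median of 40.4 and 42.6 points. In 7 clusters all regions were above the 50th percentile in both lists, and in 74 no region was. In 133 of the 269 clusters (49.4%) the same region was the strongest in both replicates. Ties went to the first region of the cluster, most clusters held only 3 regions, and the share to be met by chance was not computed. Over the 922 regions, the fold values of the 2 replicates had a Spearman correlation of 0.49, and over the unclustered of 0.38. These are across regions of the same 2 libraries, which are not independent replicates.

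**Figure D4:**
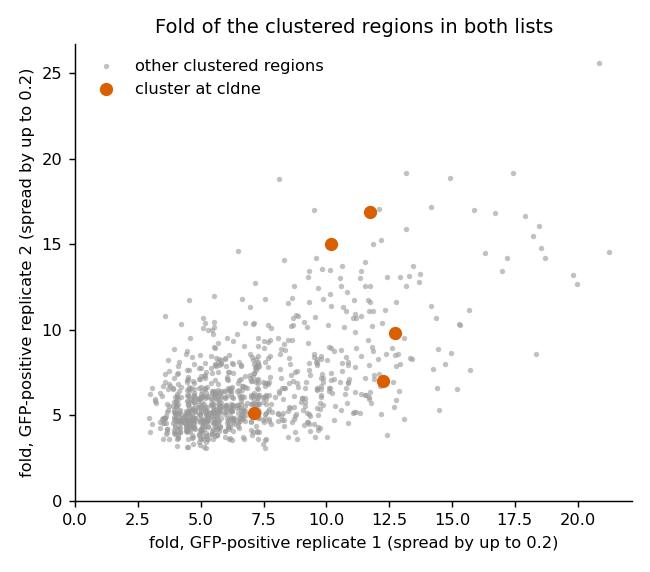
Fold of the 922 clustered regions in GFP-positive replicate 1 (horizontal axis) and replicate 2 (vertical axis), 1 point per region, with the 5 regions of the cldne cluster in orange and the others in grey spread at random by up to 0.2 because fold takes few values. Most points lie at low fold on both axes and a smaller group is high in both, while of the cldne regions 4 are above 10 in replicate 1 and 2 of these are above 10 in replicate 2.

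What lay around the clusters was then described with regions that are not members. Regions called in all 4 lists have a fold in each library. The rule used their class and position, to drop members within 1 kb, and not their fold. The clusters themselves stand where both GFP-positive lists had peaks and the GFP-negative lists had none. The side of a shift around them is thus not independent of that choice. Inside a cluster or within 20 kb of it lay 1427 of them, and 109327 lay elsewhere. In GFP-positive replicate 1 their mean percentile was 77.6 near clusters and 75.6 elsewhere. In GFP-positive replicate 2 it was 66.2 and 62.5. In GFP-negative replicate 1 it was 79.5 near clusters and 80.8 elsewhere, and in GFP-negative replicate 2 it was 73.5 and 75.2. Shared open regions near clusters were thus ranked higher in both periderm libraries and lower in both libraries of the other cells.

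The shift was 2.88 ± 1.18 points (SD, n = 2) in the GFP-positive and -1.51 ± 0.31 points (SD, n = 2) in the GFP-negative libraries. The difference of 4.39 points was larger than the spread within either group, with an exact permutation p = 0.333 (two-sided), the smallest that 2 libraries against 2 can give. The lists that placed the clusters also gave these folds, so the test is no independent support. Within replicate 1 the difference was 3.34 points and within replicate 2 it was 5.45. For the 349 shared regions inside the spans the difference was 6.66 points, with a shift of -4.07 and -5.85 points in the GFP-negative libraries. Around the clusters of 4 or more it was 5.19, around pairs 2.75 and around lone distal GFP-positive-only regions 1.10. Around the clusters of GFP-negative-only regions it was -1.39. Of the 264 clusters with a shared region within 20 kb, 184 (69.7%) had a mean difference above that of all shared regions. Of the shared regions taken singly, 57.8% did. The first share is of means over a median of 5 shared regions and the other of single regions, so they are not like for like. Leaving out a library, which also changes which regions are chosen, kept the sign but lowered the difference by over 1.5 times in 3 cases: to 1.88 when GFP-positive replicate 1 was dropped, to 0.98 for GFP-positive replicate 2 and to 2.58 for GFP-negative replicate 1. Equal list lengths gave 2.22 and the upper 50% of each list 2.80.

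**Figure D5:**
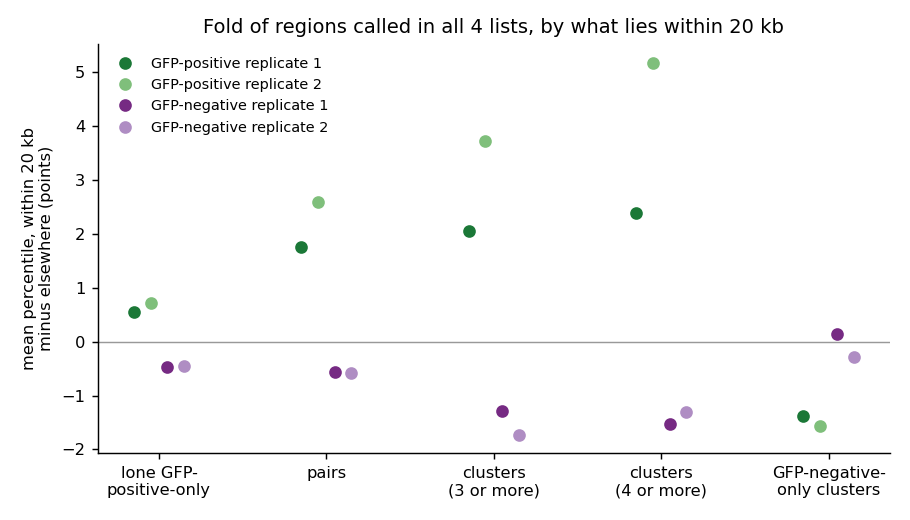
Mean fold percentile of regions called in all 4 lists that lie within 20 kb of the named feature minus that of all others (points, vertical axis), with 1 point per library. Around periderm clusters the 2 GFP-positive libraries are above 0 and the 2 GFP-negative libraries below, by more than around lone regions. Around GFP-negative-only clusters the GFP-positive libraries are below 0.

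Peaks that only 1 list held lay on the same side, around clusters that peaks of these same lists had placed. Of the single-list regions of GFP-positive replicates 1 and 2, 1.32% and 1.63% lay in or within 20 kb of a cluster. Of those of GFP-negative replicates 1 and 2, 1.08% and 1.04% did. The group means were 1.47 ± 0.21 and 1.06 ± 0.03 (SD, n = 2 each, exact permutation p = 0.333, two-sided, the smallest possible). Because of how the clusters were placed, this test is no independent support. Of all regions that were not members, 8097 lay in or within 20 kb of a cluster and 685618 elsewhere. Among the 8097 regions near clusters that were not members, 350 (4.32%) were called in both GFP-positive lists and 1 GFP-negative list, beside 2.50% elsewhere. Those called in both GFP-negative lists and 1 GFP-positive list were 6.25% near clusters and 6.96% elsewhere, and GFP-negative-only regions 4.46% and 5.75%. Regions that missed the periderm-only class by 1 weak or strong call outside, as on chromosome 17, thus made up a larger share near clusters. This too is a description around clusters placed by the same lists, and no test is given because regions share their libraries.

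Most cluster spans also held openings called in the other cells. Of the 269, 151 enclosed a region called in all 4 lists and 73 enclosed a GFP-negative-only region. The spans held 349 and 100 such regions, out of 110754 and 39772 in all. Near clusters, within 20 kb, 17.6% of the regions that were not members were called in all 4 lists, beside 15.9% elsewhere. For GFP-negative-only regions the shares were 4.46% and 5.75%. Other stretches of the same length were not counted, so these counts are not a trait of clusters. In 22 clusters with 74 regions, no GFP-negative peak of any kind lay inside the span. These were short, with a median span of 5.63 kb (1.30 to 17.7 kb), and 16 of them had 3 regions. The strongest of the 2 with 5 regions, named here after its values were seen, was on chromosome 20 (27425574 to 27433173), with a fold of 6.63 to 11.7 in replicate 1 and 4.68 to 9.83 in replicate 2.

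Clusters were found on all of chromosomes 1 to 25. Chromosome 7 had the most, with 23 clusters and 82 of its 524 distal regions (15.6%). The clustered share was highest on chromosome 25 (42 of 237, 17.7%) and chromosome 19 (56 of 327, 17.1%), and lowest on chromosome 22 (9 of 248, 3.63%) and chromosome 4 (18 of 400, 4.50%). The clustered share and the number of distal regions per Mb had a Spearman correlation of 0.37 over 25 chromosomes, which share the same libraries. Of the chromosomes with the highest shares, 25 had 6.16 and 19 had 6.51 distal regions per Mb. Of those with the lowest, 22 had 5.87 and 4 had 6.44. The part of density in the clustered share was not tested.

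When only 1 batch was used to choose regions, those in clusters were called in the other batch about as often as those outside. Distal regions called in GFP-positive and not in GFP-negative replicate 1 had a peak in GFP-positive replicate 2 in 13.2% of 75006 clustered and 12.8% of 15587 unclustered regions. Chosen in replicate 2, they had a peak in GFP-positive replicate 1 in 45.0% of 21085 clustered and 41.7% of 21573 unclustered regions. In the GFP-negative library of the other batch, 16.1% and 16.5% of the first set and 35.8% and 35.4% of the other had a peak. With 1 list per group, most distal regions fall into chains (82.8% and 49.4%), so such chains are not the clusters described above.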

How the data were processed

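The authors sorted cells, made ATAC-seq libraries, kept fragments under 100 bp as nucleosome-free and called peaks per library with MACS. The submitters' processing notes name Trimmomatic 0.35, Bowtie2, SAMtools, MACS2 2.1.1 and deepTools 2.0. The study gives danRer7 and these notes danRer10. The positions are given as danRer7, because the peaks at cldne fall in the intervals the study states for that build. The deposited value was read as a fold ratio of pileup over the library's constant background, with the constant given above added to each. It was read so because each list's values fell on multiples of a single step (tolerance 0.02 steps). From that step, a genome of 1400000000 bp and a tag extension of 54 bp, depth was implied. Without read counts no counting interval can be given.

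Starts were read as counted from 0 and are printed counted from 1. Regions, chains and percentiles were computed with Python 3.11.15, numpy 2.4.6, pandas 2.3.3 and scipy 1.17.1, and tested on simulated lists. The authors' differential test needs reads and was not run. The members, lists and comparisons were chosen with earlier results of these data known. Clusters named are the 10 with the most regions (ties by shorter span), the 5 strongest, the 3 densest and that at cldne. Genes and motifs near other clusters were not analysed here. Alternatives were the upper 50% or equal numbers of peaks, 50% overlap, a fixed width of 200 bp, gaps of 10 and 40 kb, no minimum or 5 kb to shared regions, chains of 4, and each library left out. Starts counted from 1, joining regions within 1 kb, the span alone as window, the shared regions under every alternative, the choice in 1 batch and the replicate block (1 incross per number) were added after the data were seen.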

Additional observations from a re-analysis of the deposited data

Results flagged for a closer look

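Regions called in all 4 lists moved in opposite directions near the periderm clusters: their mean fold percentile was higher near clusters in both GFP-positive libraries and lower in both GFP-negative libraries, a difference of 4.39 points. The exact permutation test over 2 libraries against 2 cannot go below p = 0.333, and the clusters were placed by peaks of the same lists. The difference is therefore a description of these libraries.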

How the results depend on the processing

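With the replicate number as a block, the shift of shared regions near clusters was 4.39 points (2 of 2 pairs positive, exact paired p = 0.5, the smallest 2 pairs can give). The counts, shares and medians come from no test and take no replicate block.

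The number of clusters and of clustered regions followed the thresholds and the peaks admitted. Against 269 clusters and 922 regions there were 88 and 288 with the upper 50% of each list, 566 and 2002 with equal numbers of the strongest peaks, 122 and 412 with a gap of 10 kb, 534 and 1969 with 40 kb, 431 and 1504 with no minimum distance to shared regions, 89 and 312 with 5 kb, and 74 and 337 with chains of 4. With equal numbers, 52.5% of the 922 regions were still clustered, and with the upper 50%, 11.6%. The clustered share among distal periderm-only regions and in the mirror class was, in the same order, 6.38% and 24.2%, 15.6% and 11.9%, 4.60% and 17.8%, 22.0% and 66.3%, 13.8% and 50.7%, 6.23% and 22.0%, and 3.76% and 21.7%. It was 8.42% and 32.7% when regions within 1 kb were counted as 1, and for GFP-negative-only regions 33.9% with an overlap of 50% and 40.2% with a fixed width. The order of the classes turned only with equal numbers and without GFP-positive replicate 2. The median percentile of clustered minus unclustered regions in replicate 2 was 2.90 points with the upper 50%, 7.55 with equal numbers, and 9.37 with a gap of 40 kb or no minimum distance, against 16.93. The median width differed by 14 bp with equal numbers or 40 kb, 27 bp with 10 kb, 24 bp with 5 kb, 23 bp with chains of 4, and by construction 0 with a fixed width, against 19 bp.

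Leaving out a library admits regions that its list would bar or no longer need match. The clusters then ranged from 539 to 11567, the clustered regions from 1815 to 65800, and the clustered shares from 14.0% to 79.5% (GFP-positive-only) and from 39.8% to 97.8% (GFP-negative-only). The median percentile difference ranged from 0 to 7.13 points in replicate 1 and from 0 to 10.3 in replicate 2, and the width difference from 1 to 13 bp. Shared regions near clusters kept the sign of their shift in all alternatives, from 0.98 to 6.66 points. No read counts were used, so depth could be read only from the steps of fold.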
